A study of Mus musculus with 6 samples.

Results

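The 35 genes described here mark macrophages and other leukocytes in the wall of the mouse aorta. They were taken as a named list, by gene identifier, and fall into 22 genes of macrophages and leukocytes in general, 6 genes of T cells, 3 genes of B cells and 4 genes of mast cells. All 35 have a row among the 18191 genes of the deposited table. The libraries were made from RNA of the whole aorta of male mice, 3 from WT and 3 from *Npr1+/-* mice, and the labels number them 1 to 3 in each genotype. The *Npr1+/-* mice are heterozygous for a knockout of *Npr1*, the gene of a receptor for natriuretic peptides, which was made with CRISPR-Cas9. The sources name no promoter or cell type to which the knockout is limited. Age and strain are not given in the sources used here, and neither genotype is described as treated. The sources do not say whether each library came from a separate animal, so that p-values measure the spread between these libraries. The comparison of the genotypes asks how the loss of 1 copy of *Npr1* changes the transcripts of the aorta.

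Macrophages of the healthy artery wall live mainly in the adventitia, where they take up dying cells, debris and antibody-coated particles. They depend on signals through the receptor CSF1R, make the C1q chains of complement, and read bound antibody through Fc receptors. The signal of activating Fc receptors passes through the adaptor FCER1G and its tyrosine motif (ITAM). The adaptor TYROBP carries such a motif for other receptors. Mast cells, which need signals through the receptor KIT, store proteases in granules, whereas T and B cells are known by the chains of their antigen receptors.

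The estimated counts summed to between 13510970 and 16664343 per library, so that 3 counts correspond to between 0.18 and 0.222 CPM (counts scaled for library size and composition). The FPKM of *Npr1* (chromosome 3, 90450591 to 90465928, GRCm38.p6) averaged 139 ± 23.1 (SD, n = 3) in WT and 104 ± 31.7 in *Npr1+/-* libraries, and the genotypes overlapped. Its log2 fold change was -0.41 ± 0.27 (SE), with an edgeR adjusted p of 0.999. The first principal component of all tested genes carried 59.3% of the variance, and on it the libraries numbered 1 of both genotypes lay away from the rest. Summed markers of adipocytes were higher in these libraries, at 6540 CPM in WT library 1 and 9960 CPM in *Npr1+/-* library 1 against 1160 to 3120 CPM in the other 4. Summed hemoglobin and other erythroid genes reached 4820 and 4040 CPM against 391 to 847 CPM. Smooth muscle markers, which define the aortic wall, were abundant in all 6 libraries but lower in these, at 20600 and 12600 CPM against 32900 to 37600 CPM. Neuron markers reached 434 CPM in *Npr1+/-* library 1, against 77.6 to 96.9 CPM in the other 5 libraries. The part of these differences in the results below was not tested. In a whole tissue, fewer cells of a type and less RNA per cell cannot be told apart.

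Macrophage transcripts were plainly present in every library, mast cell transcripts were present at a lower level, and T and B cell transcripts were close to the limit of detection. On the FPKM scale, which accounts for transcript length, *Lyz2*, the gene of a secreted lysozyme, had the highest level of the 35 genes, with 137 ± 58.2 in WT and 104 ± 23.9 in *Npr1+/-* libraries (SD, n = 3 each). The C1q chains came next, with WT means between 46.6 and 57.6 FPKM, and were followed by *Mertk* with 35.2 FPKM. These levels differed by less than the spread between WT libraries among the 3 C1q chains. The general leukocyte marker *Ptprc*, which encodes CD45, had only 1.11 ± 0.384 FPKM in WT libraries. The mast cell protease gene *Mcpt4* had 11.9 ± 4.77 FPKM, and the 6 T cell genes had WT means between 0.11 and 0.357 FPKM.

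**Figure D1:**
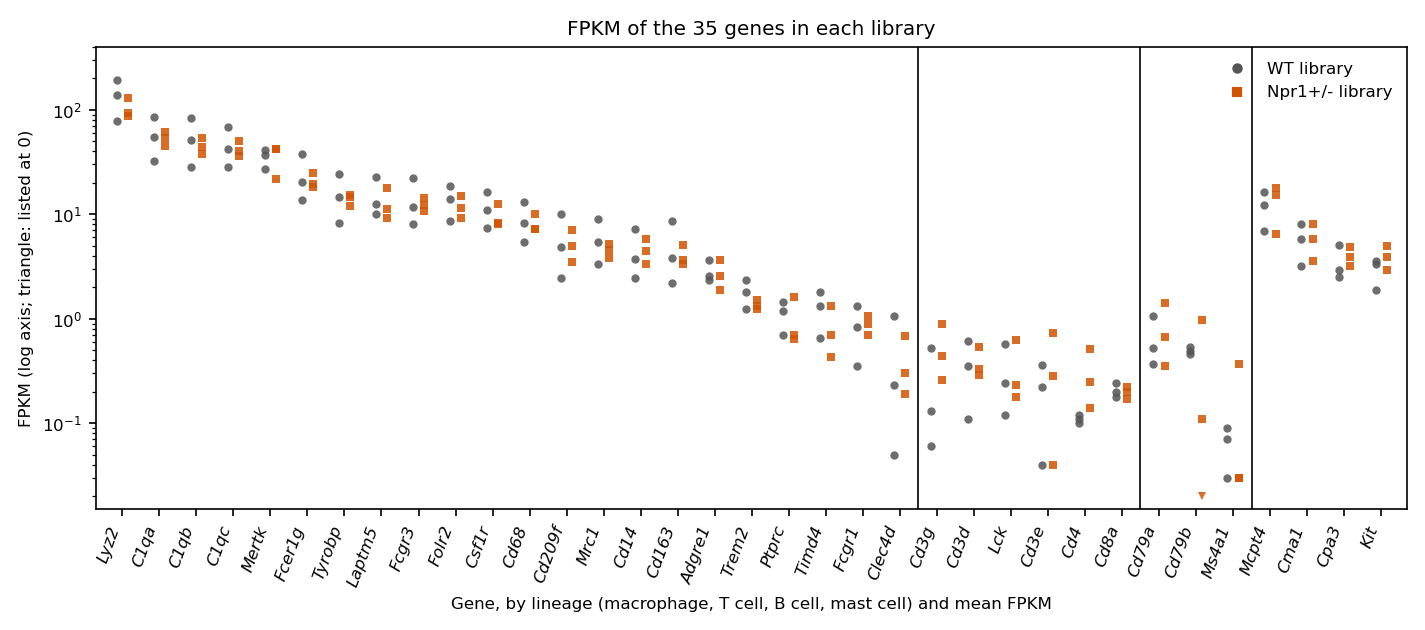
FPKM (log axis) of each of the 35 genes in the 3 WT libraries (circles) and the 3 *Npr1+/-* libraries (squares), ordered by lineage and mean level. A triangle marks a library in which the gene was listed at 0. WT and *Npr1+/-* libraries overlap in every gene but *Cd4*, and T and B cell genes lie below nearly all macrophage and mast cell genes.

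C1QA, C1QB and C1QC assemble into C1q, which starts the classical complement pathway, and their genes stand side by side on chromosome 4, between 136880126 and 136898844. The FPKM of *C1qa* was 85.68, 54.83 and 32.37 in WT libraries 1 to 3 and 61.27, 44.7 and 53.58 in *Npr1+/-* libraries 1 to 3. *C1qb* had 83.73, 50.94 and 28.39 FPKM in WT and 54.19, 37.59 and 43.73 FPKM in *Npr1+/-* libraries. *C1qc* had 68.85, 42.41 and 28.5 FPKM in WT and 50.34, 36 and 40.26 FPKM in *Npr1+/-* libraries. In all 3 genes, the lowest and the highest library were both WT, so that the *Npr1+/-* libraries lay inside the WT range. The log2 fold changes of *Npr1+/-* over WT were -0.09 ± 0.33 for *C1qa*, -0.24 ± 0.37 for *C1qb* and -0.12 ± 0.32 for *C1qc* (SE, edgeR, adjusted p = 0.999 for each). The 3 chains kept nearly the same proportions in every library. The FPKM ratio of *C1qb* to *C1qa* was 0.887 ± 0.0586 (SD over 6 libraries) and that of *C1qc* to *C1qa* was 0.806 ± 0.0443, whereas the level of *C1qa* itself spanned 32.37 to 85.68 FPKM.

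The promoters of *C1qb*, *C1qc* and *Mrc1*, whose levels varied together across libraries, and of *Mertk*, whose level did not follow them, are shown with the 250 bases before the start site in the RefSeq annotation of GRCm38.p6. Capitals mark each match to GAGGAA, the core that the myeloid transcription factor PU.1 is known to bind, on either strand, where TTCCTC is the same core on the other strand. The *C1qb* window is chr4:136886201-136886450 on the minus strand, with 1 match that starts at -30 from the start site. The *C1qc* window is chr4:136892915-136893164 on the minus strand, with 1 match at -193. The *Mrc1* window is chr2:14229164-14229413 on the plus strand and holds 3 matches, and the *Mertk* window, chr2:128698665-128698914 on the plus strand, holds 0.
C1qb: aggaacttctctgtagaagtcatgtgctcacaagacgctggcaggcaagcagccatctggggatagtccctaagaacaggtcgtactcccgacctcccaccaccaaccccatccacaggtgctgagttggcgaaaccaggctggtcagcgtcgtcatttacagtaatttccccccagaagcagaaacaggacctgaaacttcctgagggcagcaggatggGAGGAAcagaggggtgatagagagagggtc
C1qc: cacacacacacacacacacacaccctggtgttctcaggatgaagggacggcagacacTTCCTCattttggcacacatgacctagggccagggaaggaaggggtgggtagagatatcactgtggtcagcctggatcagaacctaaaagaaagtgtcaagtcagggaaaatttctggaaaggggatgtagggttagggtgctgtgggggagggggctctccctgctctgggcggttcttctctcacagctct
Mrc1: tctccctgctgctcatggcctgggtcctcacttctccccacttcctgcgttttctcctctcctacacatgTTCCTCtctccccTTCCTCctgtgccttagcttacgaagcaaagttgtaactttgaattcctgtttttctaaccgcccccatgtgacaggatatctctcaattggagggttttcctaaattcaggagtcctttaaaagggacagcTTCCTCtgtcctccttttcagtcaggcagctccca
Mertk: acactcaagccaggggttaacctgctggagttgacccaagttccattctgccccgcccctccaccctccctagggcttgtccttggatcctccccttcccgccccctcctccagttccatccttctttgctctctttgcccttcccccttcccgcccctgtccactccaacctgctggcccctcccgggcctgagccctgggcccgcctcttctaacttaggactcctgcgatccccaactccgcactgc
A window was given for 27 of the 35 genes, and of the 17 macrophage genes among them, 10 held at least 1 match (58.8%), as did 4 of the 5 T cell genes. Over 27025 genes with a window, 25.9% held one. The printed windows are picked examples of the 17, and matches were not compared with how the level of a gene varied. A match is a run of letters and does not show that a factor binds there.

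Receptors for antibody and adaptors with an ITAM showed the same order of WT libraries. *Fcgr3* (chromosome 1, 171051169 to 171065915) encodes a low-affinity receptor for IgG, and its FPKM was 22.31, 11.67 and 8.11 in WT and 14.3, 10.79 and 12.35 in *Npr1+/-* libraries. Its adaptor *Fcer1g* had 37.4, 20.26 and 13.59 FPKM in WT and 24.92, 18.43 and 19.41 FPKM in *Npr1+/-* libraries. *Tyrobp*, which encodes the adaptor DAP12, had 24.15, 14.56 and 8.21 FPKM in WT and 14.54, 12.03 and 15.18 FPKM in *Npr1+/-* libraries. WT library 1 was the highest and WT library 3 the lowest of the 6 in all 3 genes. The high-affinity IgG receptor *Fcgr1* was much lower, at 0.35 to 1.31 FPKM over the 6 libraries. *Trem2*, a lipid receptor that signals through DAP12, had 2.34, 1.82 and 1.25 FPKM in WT and 1.33, 1.23 and 1.5 FPKM in *Npr1+/-* libraries. The log2 fold changes were -0.13 ± 0.36 for *Fcgr3*, -0.16 ± 0.37 for *Fcer1g*, -0.15 ± 0.37 for *Tyrobp*, 0.13 ± 0.49 for *Fcgr1* and -0.39 ± 0.33 for *Trem2* (SE). The genotypes overlapped in each of these genes, and reads of *Fcgr3* can be shared with related Fc receptor genes, which RSEM divides between them.

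Receptors by which resident macrophages take up ligands varied widely between libraries. *Mrc1*, the gene of the mannose receptor CD206, had 9, 5.4 and 3.33 FPKM in WT and 5.17, 3.84 and 4.51 FPKM in *Npr1+/-* libraries. *Cd163*, the receptor for hemoglobin bound to haptoglobin, had 8.57, 3.81 and 2.2 FPKM in WT and 5.11, 3.35 and 3.63 FPKM in *Npr1+/-* libraries. *Cd209f*, a C-type lectin of a family of close copies, had 10.04, 4.85 and 2.47 FPKM in WT and 7.11, 5.02 and 3.51 FPKM in *Npr1+/-* libraries. In each of these genes, WT library 1 stood above all others and WT library 3 below all others. *Folr2*, a folate receptor of resident macrophages, spanned 8.66 to 18.57 FPKM, and *Timd4*, a receptor for phosphatidylserine on dying cells, spanned 0.43 to 1.82 FPKM. *Timd4* had the most negative log2 fold change of the 26 genes tested, -0.42 ± 0.55 (SE), whose 95% interval reached from -1.74 to 0.9. The log2 fold changes of the others were -0.37 ± 0.34 for *Mrc1*, -0.24 ± 0.47 for *Cd163*, -0.1 ± 0.52 for *Cd209f* and -0.18 ± 0.31 for *Folr2*.

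*Lyz2* had 194.69, 137.64 and 78.32 FPKM in WT and 131.31, 93.76 and 86.89 FPKM in *Npr1+/-* libraries. The highest and lowest of the 6 libraries were both WT, and the log2 fold change was -0.37 ± 0.34 (SE, edgeR, unadjusted p = 0.312). With the replicate number as a block, *Lyz2* had the smallest unadjusted p of the 26 genes, 0.0683 (edgeR adjusted p = 0.446). *Csf1r*, the receptor for the growth factor of macrophages, had 16.3, 10.93 and 7.47 FPKM in WT and 12.46, 8.01 and 8.22 FPKM in *Npr1+/-* libraries, again with WT at both ends. Its log2 fold change was -0.25 ± 0.32. *Ptprc* had 1.46, 1.18 and 0.7 FPKM in WT and 1.62, 0.64 and 0.7 FPKM in *Npr1+/-* libraries, so that *Npr1+/-* libraries lay at both ends.

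The remaining macrophage genes also varied between libraries, *Adgre1* the least of them. *Cd68*, a lysosomal glycoprotein, spanned 5.46 to 13.14 FPKM, *Laptm5*, a lysosomal membrane protein of leukocytes, 9.29 to 22.58 FPKM, and *Cd14*, the coreceptor for lipopolysaccharide, 2.44 to 7.16 FPKM. *Adgre1*, which encodes F4/80, spanned 1.87 to 3.69 FPKM. On the CPM scale, the ratio of the highest to the lowest WT library was 1.44 for *Adgre1* and 2.15 to 2.82 for *Cd68*, *Laptm5* and *Cd14*. Their log2 fold changes lay between -0.21 for *Laptm5* and 0.06 for *Cd14*. *Clec4d*, a C-type lectin of myeloid cells, had 19, 1 and 5 counts in WT and 13, 4 and 6 counts in *Npr1+/-* libraries, too few to be tested.

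*Mertk*, a receptor tyrosine kinase that recognises dying cells through GAS6 and protein S, did not follow the other macrophage genes. Its FPKM was 27.23, 37.01 and 41.27 in WT and 21.67, 42.42 and 42.46 in *Npr1+/-* libraries. Both libraries numbered 1 had the lowest levels, where most other macrophage genes were highest within their genotype, and the genotypes overlapped. The log2 fold change was 0.04 ± 0.29, with a 95% interval from -0.65 to 0.73. The FPKM ratio of *Mertk* to *C1qa* ranged from 0.318 to 1.27 over the libraries. The ratio of *Mertk* to the smooth muscle myosin gene *Myh11*, a comparison chosen after the values were seen, ranged from 0.0225 to 0.0408.

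Across libraries, the macrophage genes moved as a group within WT. WT library 1 was the highest of the 6 in 18 of the 21 macrophage genes that passed the filter (85.7%), against 13.1% of all 13938 genes tested. WT library 3 was the lowest of the 6 in 16 of them (76.2%), against 16.6% of all genes. The levels stood in the order WT library 1, 2 and 3 in 19 (90.5%), against 19.2%. *Npr1+/-* library 1 was the highest of its genotype in 19 (90.5%), against 41.5% of all genes. The ratio of the highest to the lowest WT library had a median of 2.54 over the 21 genes, with a range of 1.44 to 3.88, and a median of 1.38 over all genes. Genes of 1 cell type share their source in a library, so these counts are no count of independent events, and they carry no test.

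**Figure D2:**
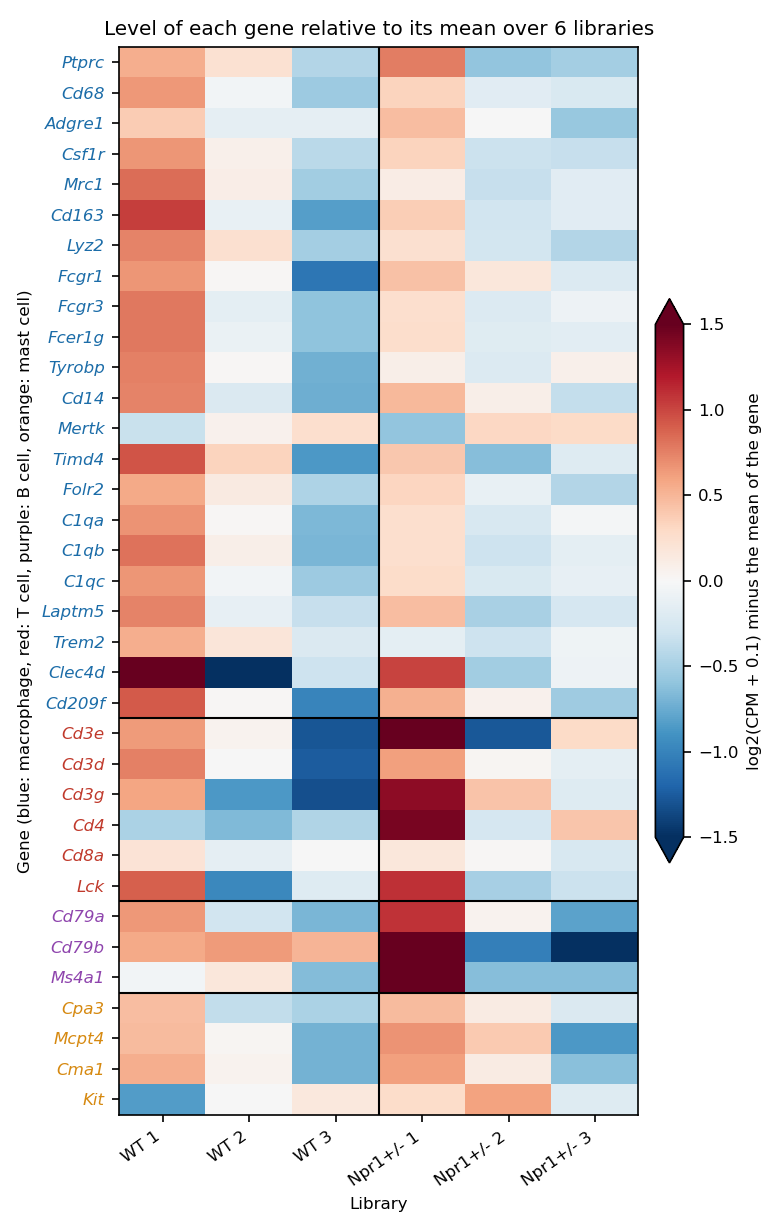
Level of each of the 35 genes in each of the 6 libraries, as log2(CPM + 0.1) minus the mean of that gene over the libraries, on a color scale from -1.5 to 1.5. WT library 1 is red and WT library 3 is blue in most macrophage genes, whereas *Mertk* and *Kit* run the other way in WT. T and B cell genes other than *Cd3d* and *Cd8a* are highest in *Npr1+/-* library 1.

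Summed over the 22 macrophage genes, the level was 927, 669 and 521 CPM in WT and 691, 600 and 604 CPM in *Npr1+/-* libraries. The mean was 706 ± 205 CPM in WT and 632 ± 51.3 CPM in *Npr1+/-* libraries (SD, n = 3 each), a ratio of 0.895, and the *Npr1+/-* libraries lay inside the WT range. Within the replicate numbers, the ratio of *Npr1+/-* to WT was 0.746, 0.897 and 1.16. *Mertk* held a large share of this sum, and without it, a choice made after its values were seen, the sums were 796, 496 and 324 CPM in WT and 582, 396 and 402 CPM in *Npr1+/-* libraries. Without WT library 1 the ratio of the 22-gene sums was 1.06, so that its direction rests on that library. Several other lists moved beside this order. Markers of adipocytes and of the erythroid lineage were higher in both libraries numbered 1, as given above, with WT library 2 below WT library 3. Smooth muscle markers ran opposite, at 20600, 34800 and 37600 CPM in WT. MHC class II genes, at 380, 239 and 199 CPM in WT, and further complement genes, at 2180, 1400 and 1060 CPM, ran in the same WT order. The neutrophil list summed to 26.7, 8.64 and 6.18 CPM in WT and 15.5, 8.48 and 8.39 CPM in *Npr1+/-* libraries, in the same WT order. Outside the libraries numbered 1, most of this sum was *Csf3r*. This gene was at 8.39 and 5.87 CPM in WT and 7.85 and 7.69 CPM in *Npr1+/-* libraries 2 and 3. Of the defining genes of the list, *S100a8* was at 4.01 CPM and *S100a9* at 7.73 CPM in WT library 1. In *Npr1+/-* library 1 they were at 1.35 and 2.28 CPM. Each had 0 counts in 1 of the other 2 WT libraries, and 2 to 5 counts in *Npr1+/-* libraries 2 and 3. Of the 8 neutrophil genes, 1 passed the filter, namely *Csf3r*. These neutrophil genes were named after their values were seen. The part of these other lists in the order of libraries was not tested.

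**Figure D3:**
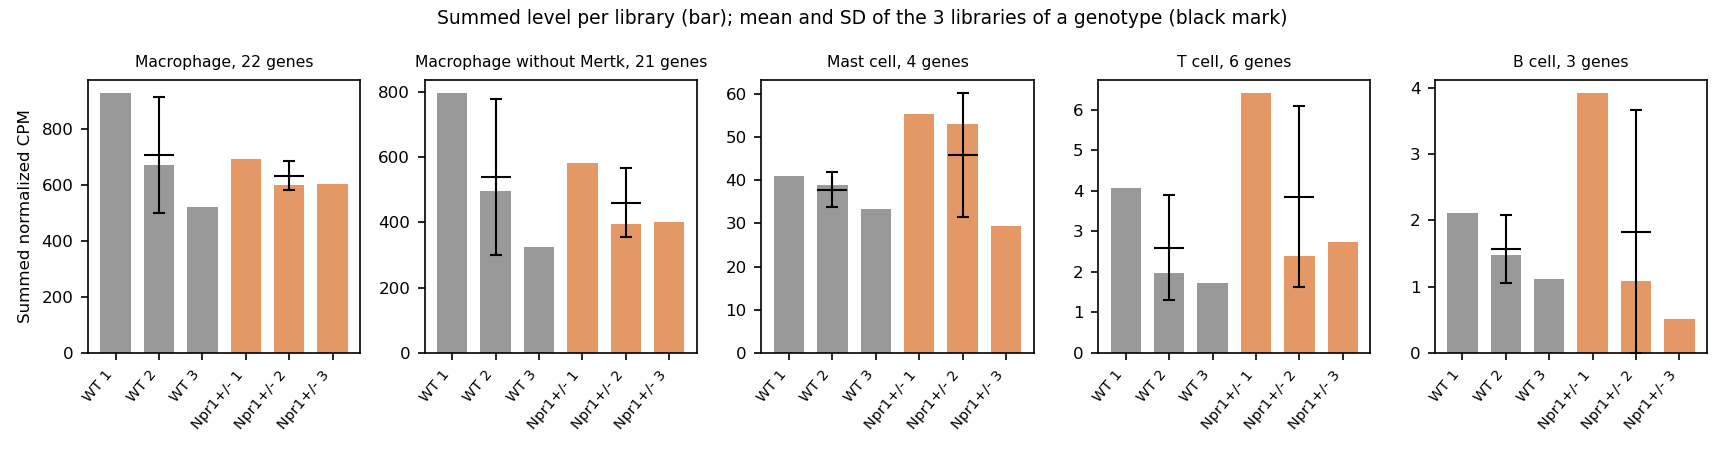
Summed normalized CPM of each lineage list in each library (bars), with the mean and SD of the 3 libraries of a genotype (black marks), the macrophage list with and without *Mertk*. The macrophage sums range from 521 to 927 CPM in WT and from 600 to 691 CPM in *Npr1+/-* libraries, and the genotypes overlap in each lineage.

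T cell genes were detected at only 1 to 23 counts per library, and none of the 6 passed the filter. *Cd3e*, *Cd3d* and *Cd3g*, which lie together on chromosome 9 and encode chains of the CD3 complex of the antigen receptor, had between 1 and 15 counts. *Lck*, a kinase that starts T cell receptor signals, had 16, 4 and 8 counts in WT and 19, 6 and 7 counts in *Npr1+/-* libraries. *Cd8a*, the coreceptor of cytotoxic T cells, had 8 to 10 counts in every library. *Cd4* marks helper T cells, and had 5, 5 and 6 counts in WT and 23, 7 and 12 counts in *Npr1+/-* libraries. *Cd4* was the only gene of the 35 whose genotypes did not overlap, but it was not among the tested genes. Of the 26 tested members, 0 were without overlap, against 3.9% of all tested genes that did not overlap with *Npr1+/-* higher. None of the 35 had all *Npr1+/-* libraries below WT, against 3.58% of the tested genes, and 7.48% of those did not overlap in either direction. An exact two-sided permutation test gives p = 0.1 for any gene without overlap at 3 libraries against 3, the smallest it allows, and so adds nothing to that description. Without a filter on low counts, its log2 fold change was 1.41 (edgeR, unadjusted p = 0.0667), and DESeq2 gave an unadjusted p of 0.0665. Macrophages and dendritic cells can also carry *Cd4* transcripts, so it is no marker of T cells alone.

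Summed over the 6 T cell genes, there were 56, 32 and 29 counts in WT and 90, 38 and 43 counts in *Npr1+/-* libraries, or 2.6 ± 1.29 and 3.85 ± 2.23 CPM (SD, n = 3 each). The genotypes overlapped, and the ratio of 1.48 became 0.99 without *Npr1+/-* library 1 and 2.08 without WT library 1. Within replicate numbers, *Npr1+/-* was the higher in all 3, with ratios of 1.57, 1.22 and 1.58. *Npr1+/-* library 1, the highest here, was also the one with the raised neuron markers given above, whose part in the T and B cell levels was not tested.

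B cell genes were as sparse. *Cd79a*, a signaling chain of the B cell receptor, had 19, 11 and 8 counts in WT and 27, 14 and 7 counts in *Npr1+/-* libraries, and was the only gene of its list to pass the filter. Its log2 fold change of 0.35 had the largest error of the 26 genes, 0.65 (SE). Its partner *Cd79b* had 8, 10 and 9 counts in WT and 17, 2 and 0 counts in *Npr1+/-* libraries. *Ms4a1*, which encodes CD20, had 1 to 3 counts in WT and 11, 1 and 1 counts in *Npr1+/-* libraries. *Npr1+/-* library 1 was the highest of the 6 in each of the 3 genes. The 3 genes summed to 29, 24 and 18 counts in WT and 55, 17 and 8 counts in *Npr1+/-* libraries, a CPM ratio of 1.17 that became 0.505 without *Npr1+/-* library 1.

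Mast cell genes were measured well enough to test in all 4 cases. *Cpa3*, the carboxypeptidase of mast cell granules, had 5.13, 2.94 and 2.5 FPKM in WT and 4.89, 3.91 and 3.17 FPKM in *Npr1+/-* libraries. *Mcpt4* (chromosome 14, 56059744 to 56062310), a chymase of connective tissue mast cells, had 16.46, 12.22 and 6.94 FPKM in WT and 18.06, 15.17 and 6.53 FPKM in *Npr1+/-* libraries. *Cma1*, a second chymase gene of the same chromosome, had 8.07, 5.77 and 3.2 FPKM in WT and 8.12, 5.85 and 3.59 FPKM in *Npr1+/-* libraries. All 3 stood highest in library 1 and lowest in library 3 of each genotype, and the genotypes overlapped. The levels of the chymase genes went together, with an FPKM ratio of *Cma1* to *Mcpt4* of 0.468 ± 0.0536 (SD over 6 libraries). Their log2 fold changes were 0.22 ± 0.34 for *Cpa3*, 0.19 ± 0.45 for *Mcpt4* and 0.08 ± 0.43 for *Cma1* (SE).

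The promoters of *Cpa3* and *Mcpt4*, which stood in the same order of libraries within each genotype, are shown in the same way. Capitals here mark GATAA or its other strand TTATC, the core that GATA factors such as the mast cell regulator GATA2 are known to bind. The *Cpa3* window is chr3:20242182-20242431 on the minus strand with 1 match at -45, and the *Mcpt4* window is chr14:56062311-56062560 on the minus strand with 1 match at -102.
Cpa3: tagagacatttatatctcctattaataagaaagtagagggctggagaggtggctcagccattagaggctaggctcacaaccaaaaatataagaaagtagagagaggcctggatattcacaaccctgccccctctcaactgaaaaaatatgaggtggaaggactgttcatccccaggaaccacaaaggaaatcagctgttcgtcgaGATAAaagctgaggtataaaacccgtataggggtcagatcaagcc
Mcpt4: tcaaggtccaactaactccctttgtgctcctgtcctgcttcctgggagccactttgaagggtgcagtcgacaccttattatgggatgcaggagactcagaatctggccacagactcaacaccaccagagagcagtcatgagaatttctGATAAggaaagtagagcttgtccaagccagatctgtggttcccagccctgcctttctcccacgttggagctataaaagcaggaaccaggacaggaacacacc
GATAA was found in 3 of the 4 mast cell genes, in 3 of the 17 macrophage genes with a window and in 25.5% of all genes with one.

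*Kit*, the receptor for stem cell factor, which mast cells need to survive, ran against the granule genes in WT, while in *Npr1+/-* it was lowest in library 3 as they were. It had 1.87, 3.37 and 3.57 FPKM in WT and 3.89, 4.97 and 2.96 FPKM in *Npr1+/-* libraries. WT library 1 was the lowest of the 6 and *Npr1+/-* library 2 the highest, and *Npr1+/-* library 3 lay below WT libraries 2 and 3, so that the genotypes overlapped. Its log2 fold change of 0.43 ± 0.31 (SE) was the most positive of the 26 genes and its unadjusted p of 0.212 the smallest (edgeR, adjusted p = 0.999), with a 95% interval from -0.32 to 1.18. The FPKM ratio of *Kit* to *Cpa3* ranged from 0.365 to 1.43, so that *Kit* did not keep proportion with the granule gene. Melanocytes and interstitial cells of Cajal also use KIT. Melanocyte markers summed to 8.68, 9.75 and 5.25 CPM in WT and 19.7, 7.4 and 8.26 CPM in *Npr1+/-* libraries. In *Npr1+/-* library 1, *Sox10* alone made up 13.4 CPM of this sum. That library was the highest of the 6 in *Sox10* and *Dct*, but not in *Tyr*, *Tyrp1*, *Pmel* and *Mlana*. Both markers of interstitial cells summed to 104, 142 and 172 CPM in WT and 92, 140 and 143 CPM in *Npr1+/-* libraries. Most of this sum was *Ano1*, at 94.1, 130 and 159 CPM in WT and 85.4, 130 and 133 CPM in *Npr1+/-* libraries. The cells that held *Ano1* were not determined, so the sum does not show that interstitial cells were present. The part of melanocytes and interstitial cells in the level of *Kit* was not tested.

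No change of a leukocyte gene between *Npr1+/-* and WT aortas passed the test. Of the 35 genes, 26 passed the filter on low counts, namely 21 of macrophages, *Cd79a* and the 4 mast cell genes, and edgeR called 0 of them with the thresholds of 0.05 for the adjusted p and 0.5 for the size of the log2 fold change. Over all genes edgeR called 0 of 13938 (0.0%), and DESeq2 called 15 (0.0832%), none of them among the 35 genes. At an unadjusted p under 0.05, 0 of the 26 genes passed with edgeR, with edgeR and the replicate number as a block or with DESeq2, against 2.96% of all tested genes with edgeR and 12.4% with the block. Log2 fold changes were below 0 in 18 genes and above 0 in 8, against 48.4% of all tested genes below 0. The median was -0.13 over the 26 genes and 0.01 over all genes. By lineage, 18 of 21 macrophage genes were below 0, with a median of -0.15, and 4 of 4 mast cell genes were above 0, with a median of 0.21. The macrophage median was 0.2 without WT library 1 and the mast cell median was -0.03 without WT library 3 and -0.06 without *Npr1+/-* library 1, so that neither direction held in every set of libraries.

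**Figure D4:**
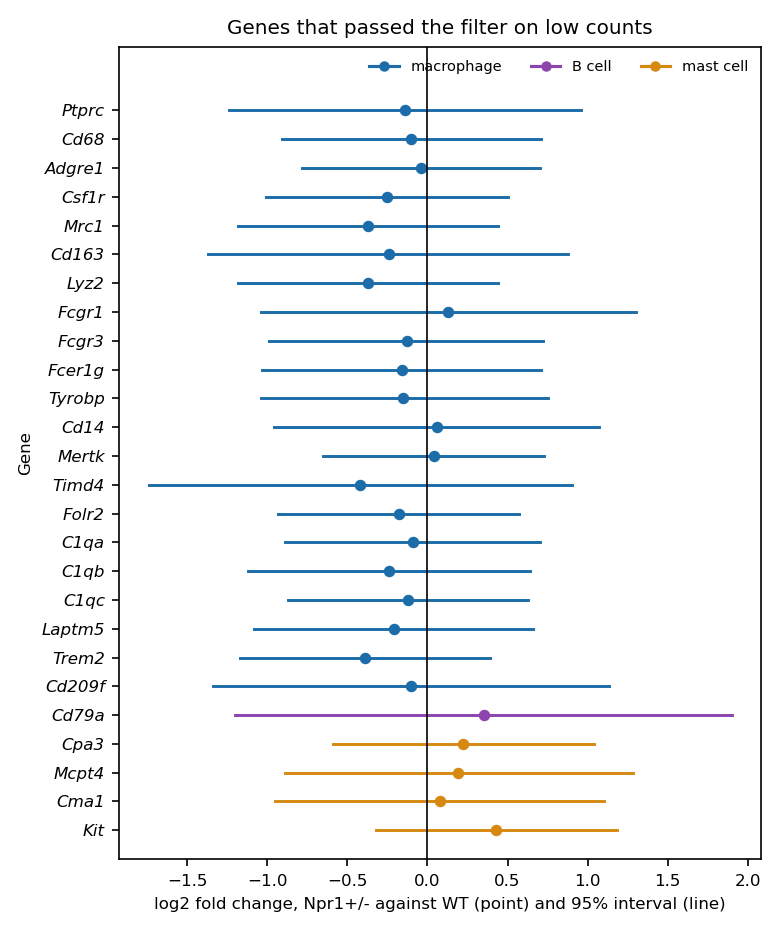
Log2 fold change of *Npr1+/-* against WT (points) and its 95% interval (lines) from edgeR for the 26 genes that passed the filter on low counts, colored by lineage. The fit held no replicate block. Every interval spans 0, the points lie between -0.42 for *Timd4* and 0.43 for *Kit*, and all 4 mast cell points lie above 0.

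The intervals of the fit without the replicate block show how far that fit bounds a difference. All 26 intervals span 0, and together they reach from -1.74 to 1.9 on the log2 scale. In 7 genes the interval lies within -1 and 1. In the other 19 a change of at least that size is inside the interval in 1 direction or, for *Cd79a*, *Fcgr1* and *Cd209f*, in both. Standard errors ranged from 0.29 for *Mertk* to 0.65 for *Cd79a*. A p that misses the threshold does not show that the genotypes have equal levels.

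No gene that works with these leukocyte genes passed the test either. Of 21 other genes of macrophages and of the ITAM pathway, 17 were tested, 9 above and 8 below 0, with a median log2 fold change of 0.01. *Plcg2*, a phospholipase downstream of these receptors, was at 1.1, 1.52 and 2.07 FPKM in WT and 2.13, 2.39 and 2.28 FPKM in *Npr1+/-* libraries, without overlap (log2 fold change 0.53, edgeR, unadjusted p = 0.0889). WT library 1 was the highest of the 6 in 7 of these 17 genes (41.2%), and *Lyve1*, a hyaluronan receptor of vessel-associated macrophages named here after its values were seen, was at 29.08, 12.74 and 7.38 FPKM in WT and 21.67, 12.55 and 16.32 FPKM in *Npr1+/-* libraries. Of the 5 ligands of member receptors, *Il34*, *Csf1*, *Kitl*, *Gas6* and *Pros1*, 1 was above and 4 below 0, and 0 passed an unadjusted p under 0.05 with edgeR. Of 11 other T cell genes 4 were tested, 2 in each direction, with a median of 0.04. Of 7 other B cell genes 2 were tested, both above 0. *Pax5* did not overlap on the CPM scale, but its counts of 0, 2 and 1 in WT and 6, 3 and 4 in *Npr1+/-* libraries lie mostly at the floor of 3 counts. *Blk* did not overlap, at 0, 4 and 2 counts in WT and 5, 5 and 7 counts in *Npr1+/-* libraries. Of 7 other mast cell genes 3 were tested, all above 0, with a median of 0.7.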

How the data were processed

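Whole aortas of male mice were measured by RNA sequencing in 3 WT and 3 *Npr1+/-* libraries. The authors filtered reads with SOAPnuke, aligned them to a set of coding genes with Bowtie2 and quantified genes with RSEM, and they deposited estimated counts, which are not normalized, and FPKM, which are scaled by transcript length and library size. Group means by the authors were not used. The submitters' processing notes name mm10. Of 18191 genes, 18070 were paired with a symbol, and coordinates and promoter windows are those of RefSeq on GRCm38.p6. Genotypes and replicate numbers came from the sample labels.

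Estimated counts were rounded and fitted for all genes with edgeR 4.0.16 in R 4.3.3 (TMM, filter with a minimum count of 10, quasi-likelihood test, Benjamini-Hochberg adjustment over 13938 genes). Calls needed an adjusted p below 0.05 and a log2 fold change of 0.5 or more in size. The study used DESeq2. Here DESeq2 1.42.0, its size factors, no filter, limma 3.58.1 on log2(FPKM + 0.1) or log2(FPKM + 1), keeping mean levels from 0.1 FPKM upwards, the replicate block, other fold thresholds and leaving out each library were alternatives, and leaving out both libraries numbered 1 was added after seeing the data. The fit was tested on simulated data.

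Deviations from the group means correlated between same-numbered libraries at 0.64, 0.39 and 0.24, and between differently numbered libraries at -0.58 to 0.44. As each same-numbered pair lay above 0.1, the label numbers were taken to pair the libraries, although the highest value between different numbers exceeds that of 2 of the 3 pairs. Library totals of 13510970 to 16664343 limit sparse genes, and counts of 3 or fewer in a library were read as the floor. Libraries of a genotype differed by more than sampling noise. Named are the 35 genes, *Npr1* and, of the other lists, genes with an unadjusted p under 0.05 or groups that do not overlap, at most 4 a list, except for 1 list that is not reported here. *Lyve1*, *S100a8*, *S100a9*, *Csf3r*, *Ano1*, *Myh11*, the 6 melanocyte genes and the 5 ligands were named outside this rule, after their values were seen. The members and lists were chosen with earlier results of these data known.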

Additional observations from a re-analysis of the deposited data

How the results depend on the processing

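The count of genes called over the whole table moved from 0 to 15 with DESeq2 and to 1 without both libraries numbered 1, and was 0 in the other settings. The count among the 35 genes was 0 in each setting. With the replicate block, in which the pairing of numbers is a term, edgeR called 0 genes, the median log2 fold change was -0.07 for macrophage genes and 0.2 for mast cell genes, and no other call changed. The ratio of summed B cell genes ranged from 0.505 to 1.59 over the fits that leave out 1 library, and was 0.851 with the replicate block.

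Of 338 log2 fold changes of member genes under the alternatives, 290 kept their direction and 48 reversed, in 22 of 26 genes. *Lyz2*, *Trem2*, *Cpa3* and *Kit* were the 4 that did not reverse. Over the fits that leave out 1 library, log2 fold changes reached from -0.75 to 0.10 for *Ptprc*, -0.36 to 0.27 for *Cd68*, -0.34 to 0.19 for *Adgre1*, -0.54 to 0.07 for *Csf1r*, -0.66 to 0.06 for *Mrc1*, -0.60 to 0.43 for *Cd163* and -0.25 to 0.61 for *Fcgr1*. It ranged from -0.42 to 0.35 for *Fcgr3*, -0.45 to 0.32 for *Fcer1g*, -0.46 to 0.30 for *Tyrobp*, -0.24 to 0.57 for *Cd14*, -0.11 to 0.27 for *Mertk*, -0.81 to 0.06 for *Timd4* and -0.43 to 0.09 for *Folr2*. It ranged from -0.39 to 0.30 for *C1qa*, -0.56 to 0.20 for *C1qb*, -0.38 to 0.26 for *C1qc*, -0.57 to 0.19 for *Laptm5*, -0.48 to 0.49 for *Cd209f*, -0.36 to 0.87 for *Cd79a*, -0.13 to 0.53 for *Mcpt4* and -0.28 to 0.40 for *Cma1*. Without both libraries numbered 1, which was chosen after seeing the data, the reversed values were 0.08 for *Cd68*, 0.20 for *Cd163*, 0.22 for *Fcgr3*, 0.15 for *Fcer1g*, 0.25 for *Tyrobp*, 0.16 for *C1qa*, 0.03 for *C1qb*, 0.09 for *C1qc* and 0.20 for *Cd209f*. *Mertk* was -0.03 with limma on FPKM at both pseudocounts, and *Cd209f* was 0.02 with limma on log2(FPKM + 0.1) and 0.02 with the replicate block. The cause was not tested. A sample left out leaves 2 libraries in its genotype, and at 1 to 23 counts the T cell genes allow no finer statement than their ranges.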

Other observations

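Lists of genes that touch the leukocyte genes but stand outside them gave the following values. Of 7 MHC class II genes, by which immune cells present antigen, 6 had a log2 fold change above 0, with a median of 0.12, and the list summed to 469, 255 and 198 CPM in *Npr1+/-* libraries beside the WT sums given above. Of 8 further genes of complement and its receptors, 2 were above and 6 below 0, with a median of -0.07. *C2*, a component cleaved in the classical pathway, was at 6.8, 5.78 and 4.78 FPKM in WT and 9.25, 6.87 and 7.78 FPKM in *Npr1+/-* libraries, which did not overlap, with a log2 fold change of 0.48 ± 0.19 (SE, edgeR, unadjusted p = 0.0411, adjusted p = 0.999).

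All 7 dendritic cell genes were tested, 4 above and 3 below 0. *Flt3*, a receptor that dendritic cells need for growth, was at 0.3, 0.22 and 0.18 FPKM in WT and 0.48, 0.45 and 0.39 FPKM in *Npr1+/-* libraries, which did not overlap, with a log2 fold change of 0.94 ± 0.35 (SE, edgeR, unadjusted p = 0.0311, adjusted p = 0.999). *Zbtb46*, a transcription factor of dendritic and endothelial cells, did not overlap on the CPM scale, but did on the FPKM scale, at 6.65, 6.06 and 6.04 FPKM in WT and 7.22, 6.38 and 7.22 FPKM in *Npr1+/-* libraries (log2 fold change 0.23). The dendritic list as a whole summed to 38.4, 34.4 and 34.3 CPM in WT and 45.5, 37.4 and 41.6 CPM in *Npr1+/-* libraries. Of 7 natural killer cell genes 0 passed the filter, and they summed to 1.39, 0.494 and 0.247 CPM in WT and 4.35, 1.14 and 1.14 CPM in *Npr1+/-* libraries.

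Among cells of the vessel and its surroundings, 6 of 6 endothelial genes were above 0, with a median of 0.61, and *Vwf*, *Tie1* and *Pecam1* did not overlap. The 6 smooth muscle genes and 5 of 6 fibroblast genes were below 0, with medians of -0.27 and -0.35, and *Col1a1* did not overlap. The 6 adipocyte genes were above 0 with a median of 0.78 and the 4 erythroid genes below 0 with a median of -0.26. Of the neuron and cardiac muscle lists, 2 of 2 and 3 of 4 tested genes were above 0, among them *Stmn2* at 2.45 and *Actc1* at 2.9 on the log2 scale. *Stmn2* had 71, 69 and 86 counts in WT and 891, 148 and 121 counts in *Npr1+/-* libraries, and its log2 fold change ranged from 0.78 to 2.88 over the fits that leave out 1 library. The 3 tested melanocyte genes were above 0 and both genes of interstitial cells of Cajal below 0. The neutrophil gene *Ngp* had 18, 1 and 1 counts in WT and 0 in each *Npr1+/-* library, so that all but WT library 1 were at the floor of 3 counts. No gene named here passed an adjusted p under 0.05 with edgeR, but *Actc1* did with DESeq2, at an adjusted p of 0.000594.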
